A study of Homo sapiens with 2 samples.

Results

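The genes described here are the 10 that encode the subunits of the hypoxia-inducible factors (HIF), the enzymes that mark those subunits according to oxygen, and the ligase subunit that reads the mark. They were chosen by name from the 56544 gene names in the deposited table, and all 10 were found there, each on 1 entry. They are HIF1A, EPAS1, HIF3A, ARNT, ARNT2, EGLN1, EGLN2, EGLN3, HIF1AN and VHL. RNA was sequenced from HGC-27, a cell line labelled as undifferentiated gastric cancer. The SOS library came from cells treated with a peptide named SOS in the sample titles and SHAP in the title of the series, and the Ctrl library from cells treated with a control peptide. Both peptides were delivered in PDPA micelles for 48 h, to cells grown in RPMI medium with serum in ordinary CO2 incubators. Each group had 1 library, so the differences below have no replicate check and were not tested, and each comparison describes these 2 libraries alone.

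HIF is a pair of proteins, an oxygen-controlled alpha subunit and a stable beta subunit, which bind DNA together and switch on genes of glucose use, blood vessel growth and matrix remodelling. When oxygen is present, prolyl hydroxylases of the EGLN family modify the alpha subunit, the VHL protein recognises the modified form, and its ubiquitin ligase sends the subunit to the proteasome. The hydroxylase encoded by HIF1AN modifies another site and keeps coactivators away. This control acts mainly on the protein, whereas the values below are levels of RNA, and neither HIF protein nor oxygen was measured in the data analysed here.

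Values are FPKM, that is fragments scaled by transcript length and library depth, so levels can be compared between genes. The scaling by length was checked on names seen in 1 library only, at the commonest deposited p of such names and with 1 annotated transcript, which are taken to hold equally few reads. Their FPKM fell with transcript length (Spearman's rho = -0.95 across 746 names in SOS and -0.95 across 602 in Ctrl, as a description). A ratio is log2((SOS FPKM + 1)/(Ctrl FPKM + 1)), which understates the difference of low genes, and a gene was tested against the size rule where it reached an FPKM of 1 in either library. A gene past the rule had a ratio of at least 1 or at most -1. The median ratio of the 14288 names tested was -0.05, and it moved to 0.15 when the libraries were scaled to an equal sum of FPKM. Scarce RNAs tended to higher ratios: with the names put in 5 bins of mean level, the lowest bin had a median of 0.22 and the highest one of -0.34. Directions follow the column names of the FPKM. The log2 ratio in the authors' deposited table has the opposite sign to these columns, being positive for genes higher under Ctrl. It may be a ratio of Ctrl to SOS, or the columns may carry each other's names, and then each direction below would turn.

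The line's label was checked against marker genes. The 5 epithelial markers (KRT8, KRT18, KRT19, EPCAM, CDH1) lay between 0.016 and 0.599 FPKM in SOS and between 0 and 0.797 in Ctrl, and the gastric markers CLDN18, MUC5AC, TFF1 and GKN1 reached at most 0.082 in SOS and 0.110 in Ctrl. The 6 fibroblast markers (COL1A1, COL1A2, COL3A1, PDGFRB, DCN, LUM) summed to 1144 FPKM in SOS and 768 in Ctrl, each with a ratio above 0. Endothelial markers were at or below 0.009 FPKM and leukocyte markers at or below 0.311 in both libraries. RNA that defines gastric epithelium was thus at or near 0 in both libraries, and fibroblast marker RNA was abundant. The part of the fibroblast markers in the results below was not tested, and in bulk RNA a different share of cells and a different level per cell cannot be told apart.

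No member was past the size rule in either direction. Of all names tested, 3.74% were past it on the higher side and 1.64% on the lower side. With 7 members tested, a count of 0 lies near these shares and does not set the members apart. With the libraries scaled to an equal sum, these shares were 5.80% and 1.07%, and the members' count stayed at 0. Of the 10 members, 7 reached the minimum level, with ratios between -0.59 and 0.35, 4 of them above 0, and a median of 0.01. Against the median of their own bin of level, 6 of the 7 stood above it. The median difference was 0.16, and EGLN2 was the exception at -0.43. The members at the minimum were HIF1A, ARNT, VHL, EGLN1, EGLN2, EGLN3 and HIF1AN. EPAS1, HIF3A and ARNT2 stayed under it in both libraries. Summed over the 10 genes, the level was 150.7 FPKM in SOS and 148.8 in Ctrl.

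**Figure D1:**
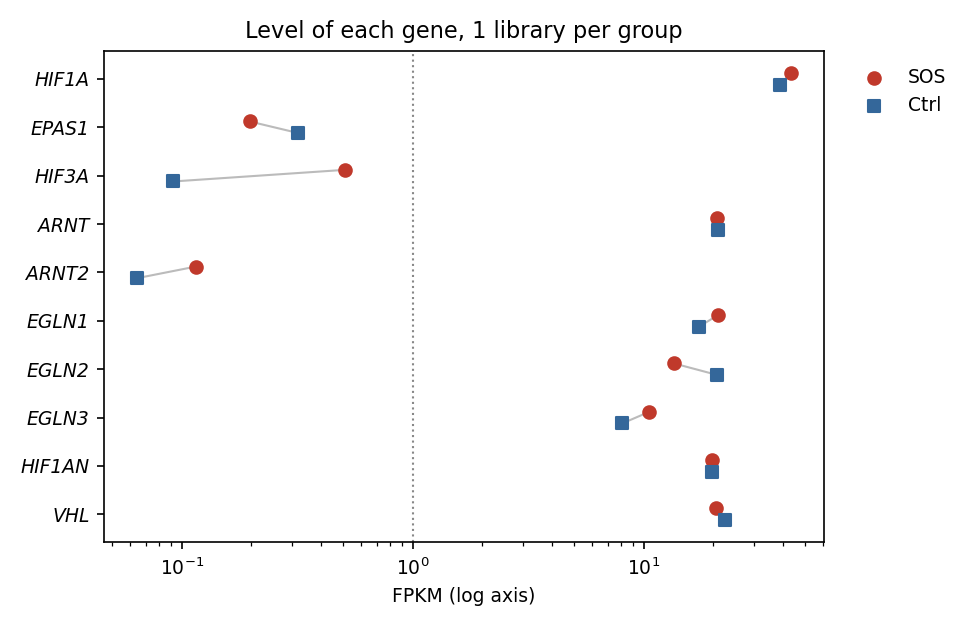
FPKM of each of the 10 genes on a log axis, with a circle for the SOS library and a square for the Ctrl library (1 library each, so no error bars); the dotted line is the minimum FPKM of 1. The 7 genes right of the line lie between 8.10 and 43.6 FPKM in both libraries, and EPAS1, HIF3A and ARNT2 lie below 0.6.

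Among the alpha subunits, HIF1A supplied nearly all of the RNA in both libraries. HIF1A, the widely expressed alpha subunit (ENSG00000100644, chromosome 14, 61695513 to 61748259, plus strand, GRCh38), was at 43.6 FPKM in SOS and 38.9 in Ctrl, 1.12-fold higher in SOS with a ratio of 0.16. It was the most abundant member in both libraries and held 98.4% of the summed alpha-subunit FPKM in SOS and 99.0% in Ctrl. HIF1A belongs to the highest of the 5 bins of level, whose median was -0.34, and stood 0.50 above that median.

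EPAS1, which encodes HIF-2 alpha (chromosome 2, 46293667 to 46386703, plus strand), was at 0.197 FPKM in SOS and 0.320 in Ctrl. HIF1A thus exceeded EPAS1 by 221-fold in SOS and 122-fold in Ctrl. HIF3A, whose splice forms include inhibitors of the other alpha subunits (chromosome 19, 46297046 to 46343433, plus strand), was at 0.509 FPKM in SOS and 0.092 in Ctrl, a 5.53-fold difference between low values. Low levels of this kind can rest on few reads. The authors' deposited table gives a log2 ratio of -2.585 for HIF3A, Ctrl over SOS, which corresponds to 6 parts in SOS to 1 in Ctrl. For EPAS1 it gives 1.433, or 10 parts in SOS to 27 in Ctrl. These are the smallest whole numbers with those ratios. Whether the deposited ratios were taken from reads is not stated, and any reads behind them may be multiples of these numbers. For EPAS1 these whole numbers differ by more than the FPKM, which was 1.62-fold higher in Ctrl. In the authors' deposited table HIF3A is the 1 member of the 10 marked as significant, a mark carried by 1.88% of named entries and by none with an absolute log2 ratio under 1. EPAS1 is not marked, although its deposited ratio is past that size. Whether the mark of HIF3A reflects the peptide cannot be told from 1 library per group.

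Of the beta subunits, ARNT showed nearly equal levels in the 2 libraries, and ARNT2 was scarce in both. ARNT, the common partner of the HIF alpha subunits and of the dioxin receptor AHR (chromosome 1, 150809705 to 150876768, minus strand), was at 20.7 FPKM in SOS and 20.9 in Ctrl, a ratio of -0.01. Its neuronal paralogue ARNT2 (chromosome 15, 80404350 to 80597937, plus strand) was at 0.115 FPKM in SOS and 0.064 in Ctrl. ARNT therefore made up 99.4% of the beta-subunit FPKM in SOS and 99.7% in Ctrl. HIF1A stood at 2.10 times the level of ARNT in SOS and 1.86 times in Ctrl.

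The 3 prolyl hydroxylases differed in direction. EGLN1, which encodes PHD2, the main hydroxylase of HIF-1 alpha in normal oxygen and itself a HIF target (chromosome 1, 231363751 to 231425044, minus strand), was at 21.0 FPKM in SOS and 17.4 in Ctrl, 1.21-fold higher in SOS with a ratio of 0.26. EGLN3, which encodes the strongly hypoxia-inducible PHD3 (chromosome 14, 33924231 to 34462774, minus strand), was at 10.6 FPKM in SOS and 8.10 in Ctrl, 1.31-fold higher in SOS. Its ratio of 0.35 was the highest of the 7 members at the minimum, and 21.4% of all names tested had a higher one. EGLN2, which encodes PHD1 (chromosome 19, 40798996 to 40808433, plus strand), went the other way, with 13.5 FPKM in SOS and 20.8 in Ctrl. It was 1.54-fold lower in SOS, its ratio of -0.59 was the lowest of the 7, and 10.0% of all names tested had a lower one.

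On the deposited FPKM scale, the makeup of the hydroxylase RNA differed while its sum hardly did. The 3 genes together were at 45.1 FPKM in SOS and 46.3 in Ctrl. EGLN1 made up 46.6% of that sum in SOS and 37.5% in Ctrl, EGLN2 29.9% in SOS and 45.0% in Ctrl, and EGLN3 23.5% in SOS and 17.5% in Ctrl. EGLN2 was therefore the most abundant hydroxylase in Ctrl and EGLN1 in SOS. The level of EGLN3 was 0.786 of that of EGLN2 in SOS and 0.389 in Ctrl. With the libraries scaled to an equal sum of FPKM, the ratio was 0.48 for EGLN1, -0.38 for EGLN2 and 0.55 for EGLN3. The near equality of the hydroxylase sums therefore belongs to the deposited scale.

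The EGLN2 value carries an uncertainty of assignment. RAB4B-EGLN2 is a read-through locus on the same strand that joins RAB4B, a gene for a small GTPase of vesicle traffic, to EGLN2, and its exons cover 2012 of the 6577 exonic bases annotated for EGLN2 (30.6%). It was at 4.43 FPKM in SOS and 2.88 in Ctrl, the opposite direction to EGLN2, and RAB4B itself was at 10.1 in SOS and 8.40 in Ctrl. Reads in shared exons can be given to either name. With the FPKM of both names summed, EGLN2 and RAB4B-EGLN2 were at 17.9 in SOS and 23.7 in Ctrl, a ratio of -0.38. The read-through name held 24.7% of that sum in SOS and 12.1% in Ctrl. With it included, the hydroxylase RNA summed to 49.6 FPKM in SOS and 49.2 in Ctrl.

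**Figure D2:**
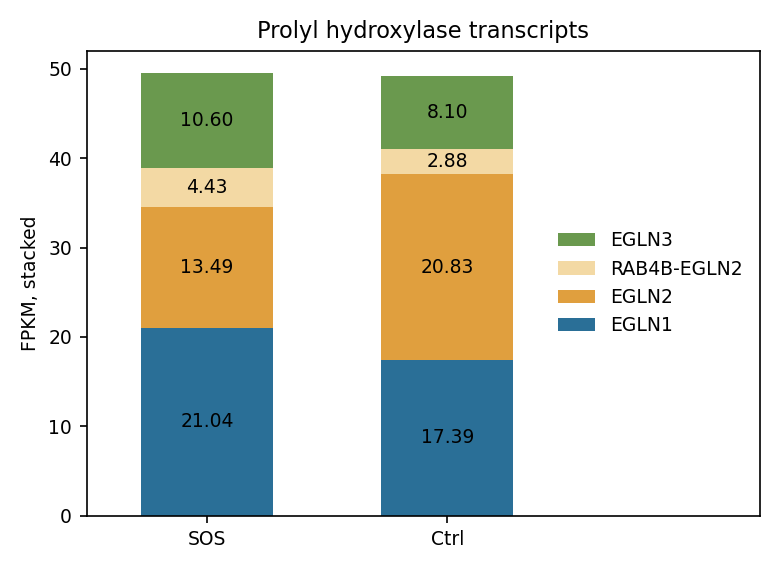
Stacked FPKM of EGLN1, EGLN2, the read-through locus RAB4B-EGLN2 and EGLN3 in the SOS and the Ctrl library (1 library each), from an axis that starts at 0. On this deposited scale the stacks have nearly the same height, with a smaller EGLN2 block (13.5 in SOS, 20.8 in Ctrl) and larger EGLN1 and EGLN3 blocks in SOS.

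HIF1AN and VHL were close to equal in the 2 libraries. HIF1AN, the asparaginyl hydroxylase also called FIH (chromosome 10, 100529072 to 100559998, plus strand), was at 19.8 FPKM in SOS and 19.7 in Ctrl, a ratio of 0.01. With the log2 ratio from the authors' deposited table, its sign turned and its median offset against the FPKM removed, HIF1AN came to 0.39. Its exons share 325 bases with the respiratory gene NDUFB8 on the opposite strand, which was at 371 FPKM in SOS and 501 in Ctrl. Whether the libraries kept strand is not given in the sources used here, so reads of that stretch cannot be told apart.

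VHL, the substrate-binding subunit of the ligase that degrades hydroxylated HIF alpha (chromosome 3, 10141008 to 10152220, plus strand), was at 20.6 FPKM in SOS and 22.5 in Ctrl, a ratio of -0.12. VHL works in a complex with the elongins, the scaffold CUL2 and the RING protein RBX1, and the 4 partner genes all had lower values in SOS. ELOB was at 141 FPKM in SOS and 223 in Ctrl. ELOC was at 40.6 FPKM in SOS and 71.7 in Ctrl. RBX1 was at 44.7 FPKM in SOS and 75.7 in Ctrl, and CUL2 at 19.9 in SOS and 21.8 in Ctrl. Their median ratio was -0.70, and none of the 4 met the size rule. Of the 4, 3 lie in the highest bin of level and 3 were below the median of their own bin. The level of ELOC was 1.97 times that of VHL in SOS and 3.19 times in Ctrl.

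The coactivators of HIF showed no joint direction. Of 6 coactivators and CITED proteins at the minimum level, 3 had a ratio above 0 and none was past the size rule. The acetyltransferases EP300 and CREBBP were at 13.5 and 15.1 FPKM in SOS and at 13.1 and 16.2 in Ctrl. The receptor coactivators NCOA1 and NCOA2 were at 3.49 and 18.0 FPKM in SOS and at 3.85 and 15.7 in Ctrl. CITED2, a HIF target that competes with HIF for EP300, was at 17.8 in SOS and 15.3 in Ctrl. CITED1 was at 8.19 in SOS and 9.61 in Ctrl, and CITED4 at 0 in SOS and 0.064 in Ctrl. Of 10 genes that act on the stability of HIF or of the hydroxylases, 3 were above 0 and none was past the rule, with a median of -0.21, between OS9 at 0.15 and the chaperone HSP90AA1 at -0.54.

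Of the bHLH-PAS family to which HIF belongs, 9 of 11 other genes reached the minimum, and ARNTL was past the size rule. ARNTL, the clock factor also called BMAL1, was at 5.53 FPKM in SOS and 1.86 in Ctrl. NPAS1 had the lowest ratio, with 2.69 FPKM in SOS and 4.51 in Ctrl. Of 21 other oxygen-using dioxygenases at the minimum, 10 were above 0 and none was past the rule. The histone demethylase KDM6B had the highest ratio, with 9.67 FPKM in SOS and 4.60 in Ctrl, and JMJD6 the lowest, with 14.4 in SOS and 22.5 in Ctrl. Enzymes that make or use 2-oxoglutarate, succinate and fumarate, the substrate and inhibitors of these dioxygenases, were lower in SOS in 9 of 10 cases, with a median ratio of -0.43 and none past the rule. Of these 10 genes, 8 lie in the highest of the 5 bins of level, whose median over all names was -0.34, and 6 of the 10 were below the median of their own bin. SDHD was at 61.3 FPKM in SOS and 94.7 in Ctrl, and D2HGDH, the exception, at 10.9 in SOS and 7.54 in Ctrl.

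The listed antisense RNAs, pseudogene and VHL-like gene were absent or scarce. HIF1A-AS1, HIF1A-AS2 and EGLN3-AS1 were listed at 0 in both libraries. The pseudogene EGLN1P1 and the VHL-like gene VHLL were listed at 0 in SOS and at 0.064 and 0.092 FPKM in Ctrl.

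Listed HIF targets reached larger ratios than the members. Of 59 listed target genes, 50 reached the minimum level, and 11 of them (22.0%) were past the size rule on the higher side and 0 on the lower, against 3.74% and 1.64% of all names. Their median was 0.39, with 34 of 50 above 0, beside -0.05 and 6550 of 14288 for all names tested. The list was drawn up with earlier results of these data known, so this is a description and no independent evidence. The groups differed by role. All 9 regulators and stress proteins were above 0, led by NDRG1 at 2.73, DDIT4 at 1.32 and the repressor BHLHE41, which was at 4.03 FPKM in SOS and 1.22 in Ctrl. ANKRD37 had the lowest ratio of that group, 0.18.

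All 6 collagen-modifying enzymes were above 0, with a median of 1.01. P4HA1, a prolyl hydroxylase of collagen that uses the same chemistry as the EGLN enzymes, was at 58.3 FPKM in SOS and 28.2 in Ctrl. LOXL2, a lysyl oxidase, was at 45.7 FPKM in SOS and 19.9 in Ctrl, and its relative LOX had a ratio of 1.54, while PLOD1 had the lowest, 0.14. The fibroblast markers, whose sum was 1144 FPKM in SOS and 768 in Ctrl, differed in the same direction as this group, and their part in it was not tested. All 5 secreted or vascular genes at the minimum were above 0, between VEGFA at 1.54 and STC2 at 0.46. In the pH group CA9, a carbonic anhydrase at the cell surface, was at 3.09. Among mitochondrial targets NDUFA4L2 was at 2.85 and HIGD1A at -0.69. The mitophagy receptor BNIP3 was near 0 in both libraries, with 0.205 FPKM in SOS and 0.320 in Ctrl.

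Glucose transport and glycolysis genes were divided. Of 22 genes 10 were above 0, with a median of -0.06. Of these genes, 14 lie in the highest bin of level, and 18 of the 22 were above the median of their own bin. PFKFB4 at 1.36 and ALDOC, at 115 FPKM in SOS and 52.3 in Ctrl, were past the rule. PGAM1 had the lowest ratio, with 539 FPKM in SOS and 731 in Ctrl, and the glucose transporter SLC2A1 was at 58.2 in SOS and 63.0 in Ctrl. Of 5 targets that respond preferentially to EPAS1, the cyclin gene CCND1 alone reached the minimum, with 52.8 FPKM in SOS and 83.5 in Ctrl. TGFA, EPO, POU5F1 and PLIN2 stayed below 0.25 FPKM in both libraries.

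**Figure D3:**
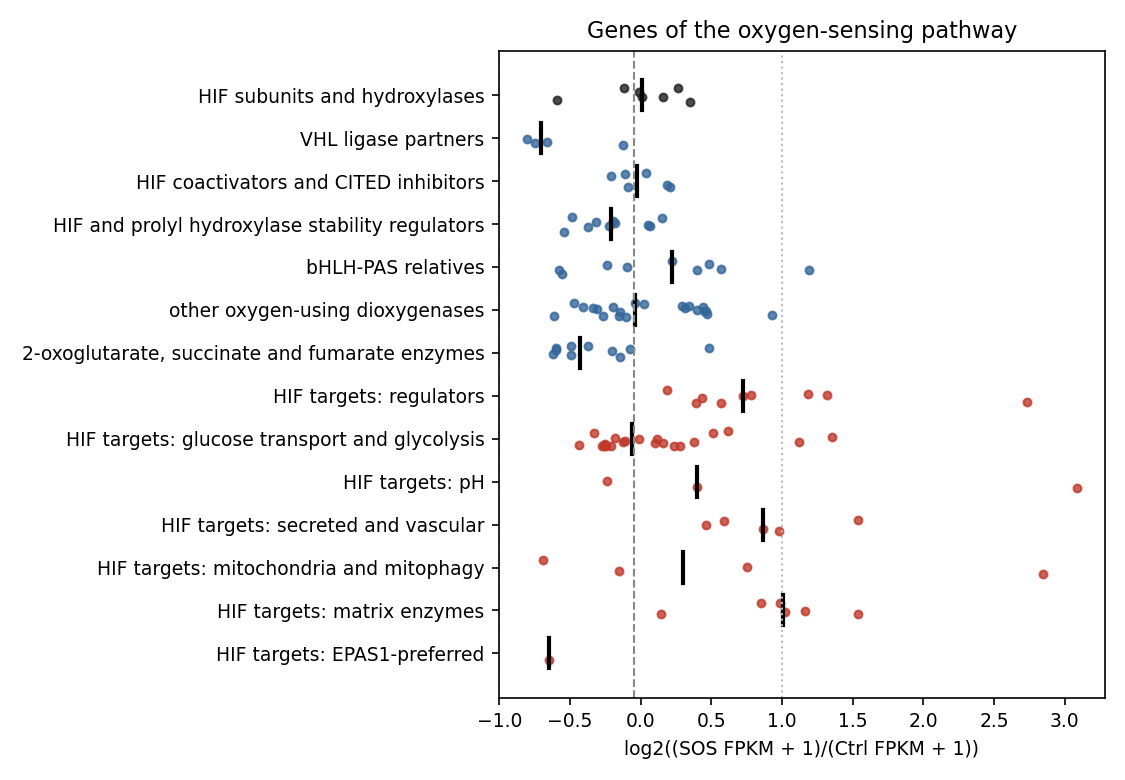
Ratio log2((SOS FPKM + 1)/(Ctrl FPKM + 1)) of each gene at the minimum level, by list, with a point per gene, a black bar at the median of the list, a dashed line at the median of all names tested (-0.05) and a dotted line at the size rule. The HIF subunits and hydroxylases lie between -0.59 and 0.35, whereas the target groups extend to 3.09 (CA9) and the VHL ligase partners lie between -0.81 and -0.13.

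HIF binds DNA at a short core motif, ACGTG or GCGTG. The motif was searched on both strands in the 250 bases before each RefSeq transcription start of the genes (GRCh38.p14), where an ACGTG on one strand can overlap one on the other when the letters read CACGTG. The table of starts held 8 of the 10 members, in 12 windows. ACGTG stood in 2 of these windows (16.7%), 1 of EGLN1 and 1 of EGLN2, beside 18.5% of all 35116 windows, and either core in 5 (41.7%), beside 43.2% of all. Among HIF targets, ACGTG stood in 40 of 78 windows (51.3%). Counted by gene, with a match in any window of the gene, ACGTG stood in 32 of 48 targets and in 5935 of all 27305 genes. Of the 11 targets past the size rule, 7 had a window, and 6 of these genes held ACGTG. Of the 39 tested targets within the rule, 35 had a window, and 22 of these genes held it. The following stretches of 30 bases show the ACGTG that lies nearest to a start in the 2 hydroxylase genes, which differed in direction, and in those 6 targets. They are read 5′ to 3′ on the strand that carries ACGTG, which is in capitals.
EGLN1 (chr1:231422283-231422312, minus strand): gggccgtggtgtACGTGcagagcgcgcaga
EGLN2 (chr19:40799131-40799160, plus strand): cggggcgcggtcACGTGcccaccgggcgag
CA9 (chr9:35673897-35673926, minus strand): tgtacgggctgtACGTGcattggaaacgag
P4HA1 (chr10:73096936-73096965, plus strand): gcagccctcgctACGTGagctcgatcacac
LOX (chr5:122078284-122078313, minus strand): gtaactttgcaaACGTGccagaaagtttaa
ALDOC (chr17:28576907-28576936, plus strand): tgtcgcagagctACGTGactcctccggggg
DDIT4 (chr10:72273787-72273816, plus strand): agaacgttgcttACGTGcgcccggagtcca
BHLHE41 (chr12:26125067-26125096, minus strand): ggtacgttccgcACGTGagctgggtgctgg

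The ACGTG of EGLN1 begins 13 bases before the start and that of EGLN2 48 bases before it. EGLN3, whose ratio was the highest of the 7, had neither core in its window. A match of these letters is a description and no evidence of binding.

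The directions of the hydroxylases held under each alternative way of computing the ratio that was run, but not every alternative could turn a sign. A change of the pseudocount, the minimum FPKM or the entry used keeps the sign of each member. Only the changes of scaling, the median set to 0 and the authors' ratio were free to turn it. Across 10 alternatives, EGLN1 lay between 0.07 and 0.60, EGLN3 between 0.35 and 0.67 and EGLN2 between -0.70 and -0.26. No alternative used EGLN2 summed with RAB4B-EGLN2, whose ratio was -0.38 on the deposited scale, so the stability of that sum was not tested. HIF1A stayed above 0, between 0.02 and 0.51, and HIF1AN between 0.01 and 0.39. ARNT and VHL had no stable sign: ARNT was above 0 in 4 of the 10 and VHL in 2, all among the settings free to turn it. Among those settings, ARNT was below 0 only with the authors' ratio before its offset was removed (-0.07). The genes of low level moved most, HIF3A between 0.47 and 2.74 and EPAS1 between -1.43 and -0.07.

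**Figure D4:**
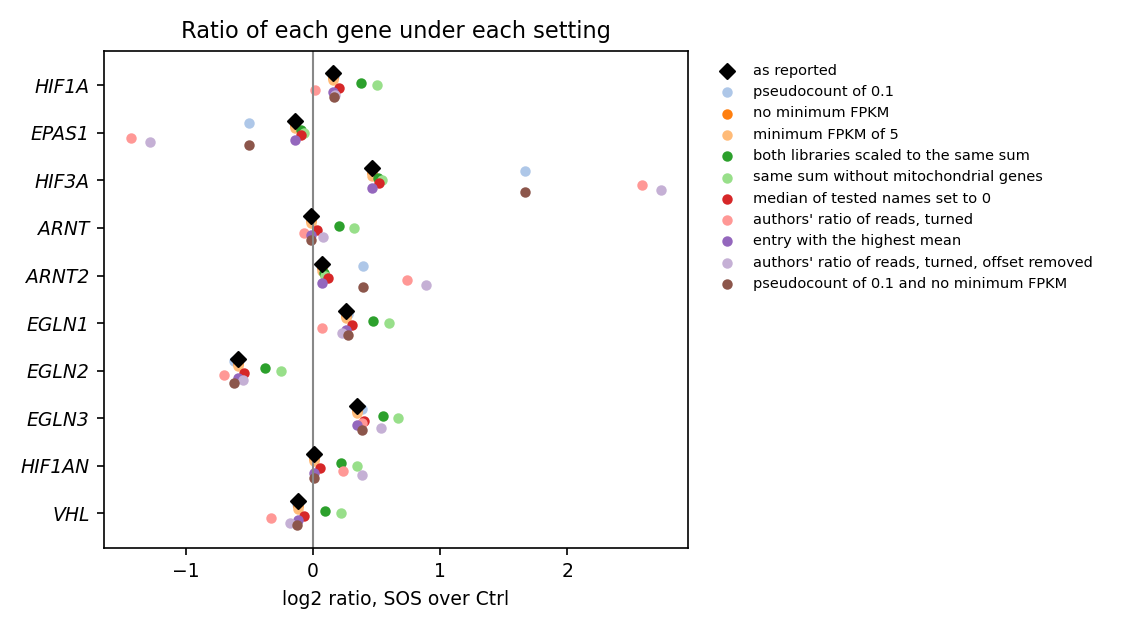
Ratio of each of the 10 genes, SOS over Ctrl, as reported (black diamonds) and under 10 alternative settings (coloured circles), with a line at 0. EGLN1 and EGLN3 lie right of the line and EGLN2 left of it throughout, while HIF3A and EPAS1 spread widely.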

How the data were processed

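RNA of HGC-27 cells was sequenced in 2 libraries, SOS and Ctrl, and 1 table of the series was used. Per the file headers, its values are FPKM by library, a log2 ratio deposited by the authors, and deposited p-values, raw and adjusted, with a significance mark. The submitters' processing notes name HISAT2, Cufflinks, RSEM and build GRCh38.p10. Their roles, their versions and the test behind the p-values, which are not printed, are not stated there. Deposited FPKM below 1 were whole multiples of 1 step per library, the same for all genes (100% of values within 0.0006, against 14.6% in SOS and 13.1% in Ctrl by chance), but names taken to hold equally few reads differed in FPKM by length, and the ratio of steps equalled the authors' ratio for 5.10% of 2450 low entries, so the steps were not treated as reads. Depth is unknown and no counting interval is given. The authors' log2 ratio, turned to SOS over Ctrl, was offset by -0.15 from the FPKM ratio over 8991 names with an FPKM of at least 5 in both libraries.

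Of 58645 entries, 412 without a name and 27 with names turned into dates were left out, and entries of 1 name were summed. Ratios used a pseudocount of 1 and a minimum FPKM of 1 in either library. The calculation was run on simulated data without noise, which checks the code and not how the rule behaves without replicates. Positions are from GENCODE release 29 (GRCh38) and motif windows from RefSeq. The members, the gene lists, the alternatives and the rule for naming genes were chosen with earlier results of these data known. The rule names all members, all VHL partners and coactivators, and from each other list the genes past the size rule and those with the highest and lowest ratio, of which 1 is not reported here; SLC2A1, BNIP3 and the genes overlapping members were added after their values were seen. Python 3.11.15, numpy 2.4.6, pandas 2.3.3 and matplotlib 3.10.9 were used.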

Additional observations from a re-analysis of the deposited data

How the results depend on the processing

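No paired analysis was possible because each group has 1 library. Of the counts and medians, those of the members and of the HIF targets moved little under the alternatives named next (counts within 1.5 times, medians by less than 0.2). These were a pseudocount of 0.1, no minimum FPKM, a minimum of 5, the median of tested names set to 0 and the highest entry of each name. The authors' log2 ratio, with and without its offset, was also among them. With the libraries scaled to an equal sum, the median was 0.22 for members and 0.60 for HIF targets. Without mitochondrial genes in that sum, the medians were 0.35 and 0.73. In that setting 18 targets were past the size rule on the higher side, beside 7.68% of all names tested. These scalings add nearly the same shift to each gene. A pseudocount of 0.1 with no minimum FPKM was an alternative added after seeing the data. It put 1 member (HIF3A) and 17 targets past the rule on the higher side and 1 target on the lower. The shares of all names were then 5.04% on the higher side and 2.81% on the lower. The pseudocount alone gave 14 targets, beside 7.66% of all names on the higher side. The missing minimum alone gave 11 targets, beside 0.95%. Each of these 2 settings gave 0 members. The authors' log2 ratio with its offset removed was also added after seeing the data. Low levels and the lack of replicates limit what can be said of EPAS1, HIF3A and ARNT2.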

Other observations

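A locus that overlaps HIF1A, chosen after its value was seen, differed more between the libraries than any of the 7 members that reached the minimum level. AL137129.1, annotated as a processed transcript on the same strand (chromosome 14, 61734138 to 61776260, GRCh38), was at 1.91 FPKM in SOS and 0.238 in Ctrl, an 8.04-fold difference with a ratio of 1.23. The Ctrl value lies under the minimum FPKM of 1 and can rest on few reads. The exons of AL137129.1 share 148 of the 5151 exonic bases of HIF1A, and reads there can be given to either name. HIF1A was at 43.6 FPKM in SOS and 38.9 in Ctrl.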
